A study of Sus scrofa with 16 samples.

Results

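The effect of cardiac ischemia/reperfusion (IR) on gene expression was compared between 2 zones of each pig heart, the scar zone and its border. For each gene the zone difference of a pig was taken as its log2 CPM (its share of all counts of a sample, after scaling between samples) in the scar zone minus its log2 CPM in the border zone. A gene was picked when the zone differences of the 4 IR pigs and of the 4 sham pigs did not overlap, so that every IR pig lay above, or every IR pig lay below, every sham pig. Of 22629 genes in the count table, 14278 had enough counts to be tested, and 571 of them showed no overlap, which is 4% of the genes tested. The IR pigs lay above the sham pigs for 328 genes (2.3%) and below them for 243 genes (1.7%). Of the 70 divisions of 8 pigs into groups of 4, a share of 0.0286 sets the values of a gene apart without overlap, in either direction. Many of the 571 genes could therefore separate without any effect of surgery. All 16 samples of the series were used.

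The animals were White Yorkshire-Landrace pigs operated on at 1 month of age, and the hearts were collected 4 weeks later. IR pigs 2, 9, 11 and 14 had the left anterior descending coronary artery occluded for 1 h and then reperfused. Sham-operated pigs 4, 5, 12 and 13 went through the operation with the suture placed but without the occlusion. Pigs 2 and 14 of the IR group and pigs 4 and 5 of the sham group were female, and the other two pigs of each group were male. The scar zone of an IR pig held the scar together with viable muscle next to it. In a sham pig, which has no scar, the piece of the same size at the suture site carries that name. The border zone was the neighbouring left ventricular muscle. Each group therefore rests on 4 animals, and the 2 samples of a pig are not independent of each other.

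After an infarct, fibroblasts of the heart fill the injured muscle with fibrillar collagens, and small leucine-rich proteoglycans and matricellular proteins bind to and order these fibres. Macrophages clear dead muscle cells and signal to the fibroblasts. Cardiac muscle cells next to a scar are known to lose some of the products of contractile and mitochondrial genes and to gain stress genes such as those of the natriuretic peptides. In these bulk samples, fewer cells of a type and less RNA per cell cannot be told apart.

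The samples held about 15427600 to 49045100 estimated counts, with a median of 21822600, so that 3 counts corresponded to 0.0612 to 0.194 CPM. Ventricular muscle markers were high in all 16 samples, with *TNNT2*, cardiac troponin T, at 8379 to 13823 TPM (a level corrected for transcript length). The atrial light chain gene *MYL4* was at 1.64 to 66.5 TPM, and *MYLPF*, of skeletal muscle, was at 0 to 0.107 TPM. The scar zone sample of female IR pig 14 held 66 counts of the Y-linked gene *DDX3Y* and 6 of *KDM5D*, against 8 to 21 and 0 in the other female samples. Without pig 14, 714 genes lay above and 743 below with no overlap, although 3 pigs against 4 separate more readily than 4 against 4. The log2 ratio of total counts between scar and border zone was -0.52 to 0.12 in IR pigs and -0.05 to 0.46 in sham pigs, and the part of depth in the results was examined by thinning all samples to the smallest total. After thinning, 290 genes lay above and 229 below with no overlap, and 27 of the 88 genes named here for having no overlap had lost it.

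A test of the difference itself was made across all 14278 genes with the quasi-likelihood test of edgeR, in which each pig was its own control and the term tested was surgery by zone. No gene passed an adjusted p of 0.05, and the smallest adjusted p was 0.702. DESeq2 with pig terms and limma on the zone differences also called 0 genes. At an unadjusted p of 0.05 without regard to fold, 785 genes passed in DESeq2, 962 in limma and 998 (6.99%) in edgeR, and the edgeR genes were split into 606 (4.24%) with a larger and 392 (2.75%) with a smaller zone difference in IR pigs. With a fold of 2 added, 199 genes (1.39%) were larger and 18 genes (0.126%) were smaller. Of the 128 genes named by rule or after their values were seen, 88 had no overlap and the others overlapped, and none is called by a test corrected over all genes. For the 88 named genes with no overlap, the adjusted p of edgeR was between 0.702 and 0.732. The edgeR p-values use the differences that picked the genes, and they are not independent evidence for them.

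The 328 genes above had a median difference between IR and sham pigs of 0.51 on the log2 scale, with a range of 0.09 to 2.59, and 69 of them reached 1. Over all genes tested this median was 0.01. In 279 of the 328 genes the scar zone was above the border zone in all 4 IR pigs, and in 70 the 4 sham pigs also all had a negative zone difference. The 243 genes below had a smaller median of -0.34, with a range of -0.12 to -4.76, and 13 of them reached 1 in size. In 190 of them the scar zone was below the border zone in all 4 IR pigs, and in 64 the 4 sham pigs all went the other way. For 227 of the genes above, the IR mean was higher than the sham mean in the scar zone and lower than it in the border zone. For 128 of the genes below the reverse held, with a lower IR mean in the scar zone and a higher one in the border zone. The other genes had IR means on the same side of sham in both zones. The genes above were counted less deeply, with a median of 7.21 CPM against 28.6 CPM for the genes below and 16.5 CPM for all genes tested, where CPM is a depth of counting and is not corrected for length.

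The scale of measurement changed which genes separated. On log2(TPM + 1) the split was 215 above and 62 below, with the median difference of all genes at 0.12 on that scale, and after each pig was centred on its own median it was 283 and 216. Of the 88 named genes with no overlap, 23 kept it under every setting that tested them. Only 10 of these were tested in all 10 settings, among them *FMOD*, *GPNMB*, *RGS1*, *LDHD* and *SMTNL2*. *CILP2* was tested in 7 settings and *KLF5* in 6, and both kept it there. The sign of the difference was reversed in none of the 88. On log2(TPM + 1) 51 of the 88 lost it. Of the 10 settings, *IRF5* and *HEXA* lost the separation in 7, *BGN*, *PTGER4*, *PDE4B*, *ASNS*, *SGCB* and *ARID4B* in 6, and *TIMP1*, *TEK*, *SYNPO2*, *SSPN*, *SOCS3* and *PPIF* in 5.

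**Figure D1:**
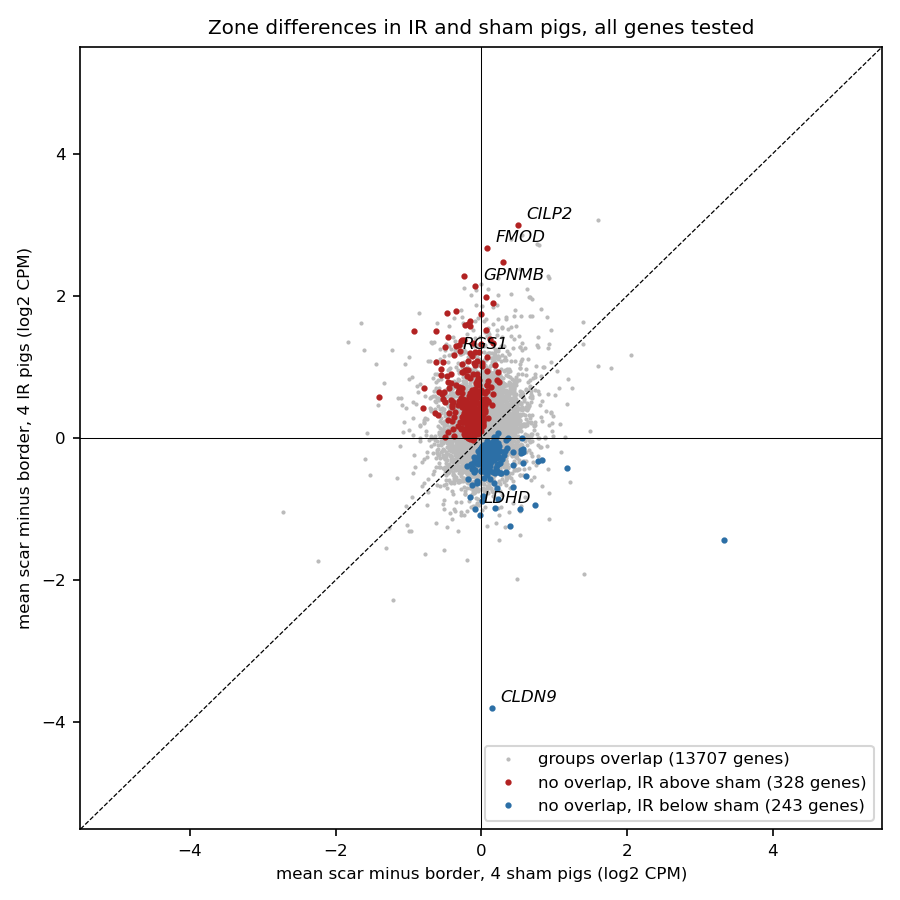
Mean zone difference (log2 CPM, scar minus border) of the 4 sham pigs on the horizontal axis against that of the 4 IR pigs on the vertical axis, with 1 point per gene for the 14278 genes tested and equal means on the dashed line. The 328 red genes (no overlap, IR above sham) lie above the line and the 243 blue genes (no overlap, IR below sham) lie under it, with *FMOD*, *CILP2* and *GPNMB* near the top and *CLDN9* at the bottom.

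Of the genes nearest to the edge of the rule, *ARID4B* was just inside, with IR zone differences of -0.20 to 0.02 and sham zone differences of 0.02 to 0.18, and so was *PDE4B*, with -0.56 to -0.25 against -0.25 to -0.11. *ANKS1A* was just outside, with -0.51 to -0.20 in IR pigs and -0.20 to -0.12 in sham pigs. *NBAS* was also just outside, with 0.09 to 0.26 against -0.15 to 0.09.

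Among the matrix genes, the proteoglycan fibromodulin separated the groups most widely. *FMOD*, whose product binds collagen fibrils, was at 34.0, 16.9, 40.1 and 18.1 CPM in the border zones of IR pigs 2, 9, 11 and 14 and at 72.1, 629, 399 and 37.7 CPM in their scar zones. In sham pigs 4, 5, 12 and 13 it was at 19.8, 25.7, 32.9 and 39.6 CPM in the border zone and at 23.8, 31.2, 33.3 and 33.6 CPM in the scar zone. Every IR scar zone was thus above every sham scar zone, while the border zones overlapped. The zone difference was 2.67 ± 2.00 (SD, n = 4) in IR pigs, a 6.35-fold mean, against 0.08 ± 0.24 (SD, n = 4) in sham pigs. The edgeR estimate of the difference was 2.57 with a standard error of 0.81, with an adjusted p of 0.702. The 2 male IR pigs carried most of it, and without pig 9 the difference in means was 1.71.

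*CILP2*, for a cartilage intermediate layer protein of the matrix, gave zone differences of 2.00, 6.16, 1.41 and 2.40 in IR pigs 2, 9, 11 and 14. In sham pigs 4, 5, 12 and 13 they were 0.83, -0.33, 0.83 and 0.68. The gene was low outside the scar zone of pig 9, where it was at 73.0 CPM, and the other three IR scar zones were at 0.868 to 3.52 CPM. Only 2 counts were found in the border zone of pig 14, whose difference is therefore not reliable in size, and without pig 9 the difference in means went from 2.49 to 1.40. Biglycan, another small proteoglycan, was also highest in pig 9. *BGN* had zone differences of 0.26, 3.21, 1.90 and 0.71 in the IR pigs and of 0.21, 0.25, -0.16 and -0.03 in the sham pigs. Its lowest IR pig cleared the highest sham pig by 0.02, and the difference in means was 0.87 without pig 9. *TIMP1*, an inhibitor of matrix metalloproteinases, was 0.06, 1.48, 1.09 and 0.06 in IR pigs and -0.08 to 0.03 in sham pigs.

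These were 3 of the 66 proteoglycan and matricellular genes tested (4.55%, beside 2.3% of all genes) and 1 of the 47 matrix proteases and inhibitors (2.13%), with none below in either list. The list medians of the difference between IR and sham pigs were 0.60 and 0.38, which became 0.28 and 0.13 without pig 9, and the latter 0.21 without pig 11. *CILP2* and *FMOD* were also the 2 of 20 cartilage and bone markers above (10%, beside 2.3% of all genes), in a list whose median of 0.94 became 0.40 without pig 9.

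For the 10 fibrillar collagens tested the difference in means was positive, with a median of 0.69, or 0.45 without pig 9. None was free of overlap, beside 4% of all genes, and in so short a list that count is near the share over all genes. The list median of the zone difference was 1.92 in pig 9 and 1.60 in pig 11, both male, and -0.09 in pig 2 and -0.11 in pig 14, both female. In the sham pigs it was between -0.12 and 0.49. *COL1A1*, the chain of type I collagen that leads in scar, was at 702 CPM in the border and 5655 CPM in the scar zone of pig 9, and at 1486 and 9534 CPM in pig 11. In pig 2 the same gene was at 1549 and 1505 CPM, and in pig 14 at 863 and 904 CPM. The scar zones of those 2 pigs lay within or near the range of the sham scar zones, which was 908 to 1414 CPM. Sex and animal cannot be told apart with 2 pigs of each sex, and a sex by zone term added to the edgeR fit also left no gene past the adjusted threshold.

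The same split ran through the other scar genes described whatever their values. *COL3A1* had zone differences of 1.99 and 1.78 in pigs 9 and 11 and of -0.23 and -0.33 in pigs 2 and 14. *FN1*, for fibronectin, gave 3.21 and 2.48 against -0.28 and -0.42, and *LOX*, which crosslinks collagen, gave 2.16 and 2.16 against -0.07 and -0.07. For *POSTN*, periostin of activated fibroblasts, the values were 3.24 and 1.57 against 0.41 and 0.11. The two-sided exact permutation test over the 8 pigs, in which the smallest p possible is 0.0286, gave 0.2 for *COL1A1*, 0.429 for *COL3A1*, 0.4 for *FN1* and 0.171 for both *LOX* and *POSTN*. None of the 22 other collagens, 29 collagen processing enzymes and 45 fibroblast and myofibroblast markers tested was free of overlap in either direction, beside 4% of all genes, and the list medians were 0.43, 0.23 and 0.47. Without pig 9 these medians were 0.11, 0.05 and 0.15. The last pair were 0.08 and 0.28 without pig 11, and the first was 0.27 without sham pig 5. Without female IR pig 2 or 14 the first was 0.73 or 0.71, and the enzyme list was at 0.35 or 0.40. *ACTA2*, smooth muscle actin of myofibroblasts and vessels, had zone differences of -0.25 to 1.55 in IR pigs and of -0.46 to 1.07 in sham pigs.

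**Figure D2:**
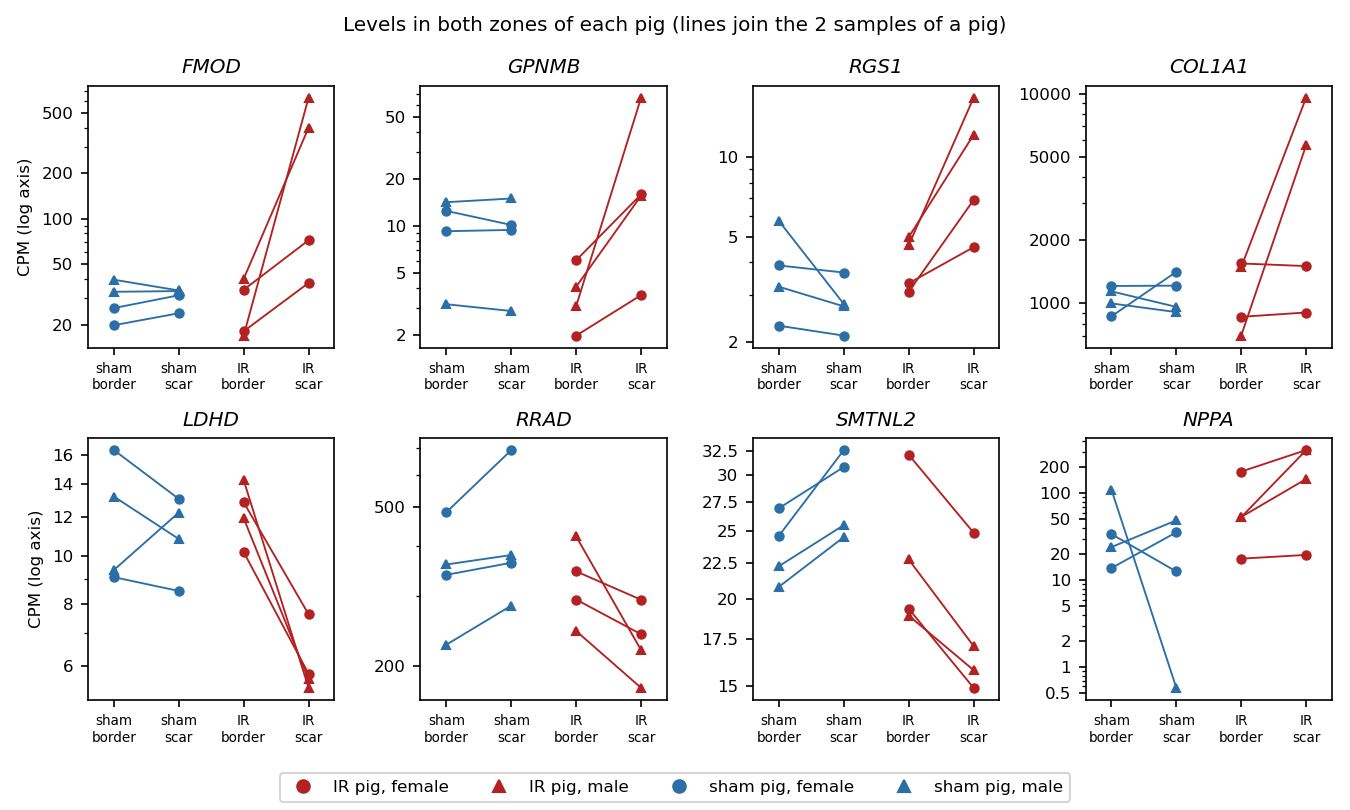
CPM (log axis) of 8 genes in the border and scar zone of each pig, with a line joining the 2 samples of a pig, sham pigs in blue and IR pigs in red, circles for females and triangles for males. *FMOD*, *GPNMB* and *RGS1* go up from border to scar zone in all 4 IR pigs and *LDHD*, *RRAD* and *SMTNL2* go down, whereas *COL1A1* goes up steeply only in male pigs 9 and 11 among the IR pigs, and *NPPA* differs among the sham pigs by more than between the groups.

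Of the 43 macrophage and dendritic cell genes tested, 3 (6.98%, beside 2.3% of all genes) lay above with no overlap. The list median was 0.35, or 0.23 without pig 11, and the difference in means was positive for 41 of 43 genes, beside 7424 of all 14278. By pig the list overlapped between the groups, since its median zone difference was 0.10 and 0.18 in IR pigs 2 and 14 and 0.21 in sham pig 4. *GPNMB*, a glycoprotein of lysosome-rich macrophages, was at 6.04, 3.07, 4.09 and 1.99 CPM in the border zones of IR pigs 2, 9, 11 and 14 and at 15.9, 66.3, 15.6 and 3.61 CPM in their scar zones. In sham pigs 4, 5, 12 and 13 it was at 12.5, 9.27, 3.16 and 14.2 CPM in the border and at 10.2, 9.45, 2.86 and 15.02 CPM in the scar zone. The levels of the groups overlapped in the scar zone, so that the separation lay in the change within each pig. The zone difference was 2.13 ± 1.57 (SD, n = 4) in IR pigs and -0.08 ± 0.17 (SD, n = 4) in sham pigs, and the difference in means was 1.44 without pig 9.

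*TYROBP*, an adaptor of activating receptors on myeloid cells, gave zone differences of 0.12 to 0.62 in IR pigs and of -0.23 to 0.02 in sham pigs. *C1QC*, a chain of complement C1q that macrophages make, gave 0.20 to 0.99 against -0.06 to 0.14, and it was also the 1 of 27 complement genes above (3.7%, beside 2.3% of all genes), a list with a median of 0.41 that was 0.26 without pig 11. Its difference in means of 0.41 was 0.23 without pig 11. *CD209*, of dendritic cells and macrophages, was 1.30, 2.53, 4.00 and 0.52 in IR pigs, but sham pig 4, at 2.69, overlapped with them (exact permutation p = 0.143). *CD86* gave -0.15 to 0.55 in IR pigs and -0.37 to 0.09 in sham pigs (exact permutation p = 0.257). The summed level of the 46 macrophage and dendritic cell genes in the files was 310 to 1110 TPM in IR scar zones, 297 to 472 TPM in IR border zones, and 219 to 440 TPM across both sham zones.

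*RGS1*, which dampens G protein signalling in leukocytes, had the smallest unadjusted p of the 15 genes above with the largest differences. Its zone differences were 0.44, 1.27, 1.83 and 1.13 in IR pigs 2, 9, 11 and 14, and -0.09, -0.12, -1.02 and -0.24 in sham pigs 4, 5, 12 and 13. All IR pigs were thus positive and all sham pigs negative, and the edgeR estimate was 1.62 with a standard error of 0.33, with an adjusted p of 0.702. Scar zone levels were 4.56 to 16.7 CPM in IR pigs and 2.11 to 3.66 CPM in sham pigs, without overlap.

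Among 55 cytokines, chemokines and their receptors, 3 lay above (5.45%, beside 2.3% of all genes) and none below, with a list median of 0.32 that was 0.19 without pig 11. *CXCL2*, a chemokine for neutrophils, had zone differences of 1.72, 0.25, 2.58 and 0.78 in IR pigs and of -0.76 to 0.18 in sham pigs. The receptor genes *IL21R* and *IL10RB* gave 0.40 to 0.63 against -0.66 to 0.36 and 0.03 to 0.39 against -0.47 to -0.01. *IL10* itself was at 0.409 to 2.52 CPM in IR scar zones and its zone differences overlapped (exact permutation p = 0.114).

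Of 56 lymphocyte genes none was free of overlap, beside 4% of all genes, and the list median of 0.07 ranged from -0.05 without sham pig 12 to 0.15 without IR pig 9 or sham pig 13. For them the IR mean was above the sham mean by a list median of 0.33 in either zone. The 46 interferon-stimulated and antigen presentation genes were also higher in the mean of IR pigs in both zones, by list medians of 0.68 (scar) and 0.58 (border), and the list median of the IR minus sham difference between zones was 0.11, or 0.07 without pig 2 or sham pig 12. The summed level of this list was 1884 to 6866 TPM in IR border zones, with a median of 2431 TPM. In sham border zones it was 1194 to 2293 TPM, with a median of 2091 TPM. Of these, *MX1*, an antiviral GTPase, and *SLA-DOA*, of the class II antigen loading pathway, lay above with no overlap (4.35%, beside 2.3% of all genes). Pig 11 stood apart in the level of *MX1*, at 375 CPM in the border and 410 CPM in the scar zone, while the other three IR pigs were at 21.8 to 37.9 CPM, inside the sham range of 13.3 to 53.4 CPM. *SLA-DOA* was 0.23, 0.15, 0.32 and 0.36 in IR pigs and -0.55 to 0.04 in sham pigs. *CXCL10* and *CXCR3*, the ligand and receptor of a T cell chemokine axis, overlapped between groups (exact permutation p = 0.771 and p = 0.143), and so did *PTPRC*, the pan-leukocyte gene CD45 (p = 0.714).

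The next genes were chosen one by one from the 328 after their values were seen, so that no count stands behind them as a group. *TLR4*, the receptor for bacterial lipopolysaccharide and for damage signals, gave zone differences of 0.67, 0.51, 1.43 and 0.39 in IR pigs and of -0.19 to 0.22 in sham pigs. *NLRP3*, of the inflammasome, gave 0.16 to 0.99 against -0.68 to 0.10, and *NOD1*, a cytosolic sensor of bacterial wall fragments, gave 0.29 to 1.55 against -0.22 to 0.07. *CGAS*, which senses DNA in the cytosol, was positive in all 4 IR pigs, at 0.11 to 0.53, and negative in all 4 sham pigs, at -0.48 to -0.01. *MERTK*, a receptor with which macrophages take up dying cells, gave 0.49 to 0.98 against -0.34 to 0.42.

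The transcription factor *IRF5* gave 0.27 to 0.96 against -0.20 to 0.27. *PTGES*, which makes prostaglandin E2, gave -0.20 to 1.19 against -0.98 to -0.34, and *PTGER4*, a receptor for it, gave 0.22 to 0.90 against -0.40 to 0.21. *NFKBIZ* and *SOCS3*, induced by cytokines, gave 0.63 to 2.71 against -0.63 to 0.33 and 0.15 to 2.41 against -0.07 to 0.14. Pig 11 was the highest for both, and without it their differences in means went from 1.33 to 0.86 and from 1.001 to 0.53. The lysosomal enzyme genes *ASAH1* and *HEXA* had differences in means of 0.56 and 0.20, the latter being 0.12 without pig 11.

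The other large differences above included genes of transcription, growth signalling and the cell membrane. *KLF5*, a zinc finger transcription factor of proliferating and injured tissue, had zone differences of 1.03, 3.56, 1.18 and 1.28 in IR pigs and of -1.55, 0.18, 0.03 and -0.54 in sham pigs. It was at 0.681 to 6.88 CPM in IR scar zones and at 0.181 to 0.820 CPM in sham scar zones. *ID4*, an inhibitor of basic helix-loop-helix factors, gave 0.38, 2.61, 1.66 and 0.89 in IR pigs and -0.52 to 0.08 in sham pigs. *FGF18*, a growth factor best known from cartilage and bone, was 2.30, 1.23, 2.17 and 0.64 against -0.72 to 0.15, and *ANGPTL7*, a secreted angiopoietin-like protein, was 3.05, 2.14, 0.73 and 1.66 against -0.21 to 0.45. For *ANGPTL7* and for *FGF18*, female IR pig 2 was the highest animal.

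*PIEZO2*, a channel opened by stretch of the membrane, gave 0.90, 2.17, 2.63 and 1.29 in IR pigs against -1.09 to 0.40 in sham pigs. *CDH1*, E-cadherin of epithelial junctions, gave 0.32, 2.66, 2.43 and 1.01 against -0.72 to 0.29. The phosphodiesterase gene *PDE8B* gave 0.12, 2.88, 2.15 and 0.31 against -0.96 to 0.04, so that its female IR pigs were close to the sham pigs. Also among the largest 15 were *ZNF385D* at 0.95 to 2.00 against -1.24 to 0.47, *FRMPD1* at 0.56 to 1.86 against -1.05 to -0.18, and *KCTD17* at 0.76 to 1.65 against -0.56 to 0.18. *KCTD17* was the most even of these, with 1.23 ± 0.37 (SD, n = 4) in IR pigs and -0.29 ± 0.34 (SD, n = 4) in sham pigs.

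*CHAC1*, which breaks down glutathione and is induced when amino acids run short or proteins misfold, was 2.02, 2.88, 0.58 and 1.67 in IR pigs and -1.14 to 0.33 in sham pigs. The value of pig 14 rests on 2 counts in its border zone and 8 in its scar zone, so that its size is not reliable. The level was low, at 0.117 to 0.769 CPM in IR border zones and 0.545 to 6.18 CPM in IR scar zones. A few more single genes above were chosen after their values were seen and belong to no list counted here. *PHGDH*, of serine synthesis, gave 0.10, 2.17, 0.90 and 0.12 in IR pigs and -0.13 to 0.06 in sham pigs, and its difference in means went from 0.85 to 0.38 without pig 9. *ASNS*, asparagine synthetase, gave 0.10 to 0.41 against -0.31 to 0.10, and *GARS*, glycyl-tRNA synthetase, gave 0.00 to 0.71 against -0.35 to -0.07.

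Chosen in the same way for their evenness or size, *ZNF503* had zone differences of 0.60, 0.73, 0.93 and 0.81 in IR pigs and of 0.07, -0.18, 0.01 and -0.19 in sham pigs. *SOD3*, the extracellular superoxide dismutase, was 0.46, 1.01, 1.61 and 0.63 in IR pigs against -0.66 to 0.26 in sham pigs. The fibroblast transcription factor genes *OSR1* and *CREB3L1* gave -0.03 to 1.87 against -0.31 to -0.18 and -0.04 to 2.11 against -0.44 to -0.13, and in both the male IR pigs were the higher ones. *CREB3L1* had a difference in means of 1.20, which was 0.78 without pig 9.

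**Figure D3:**
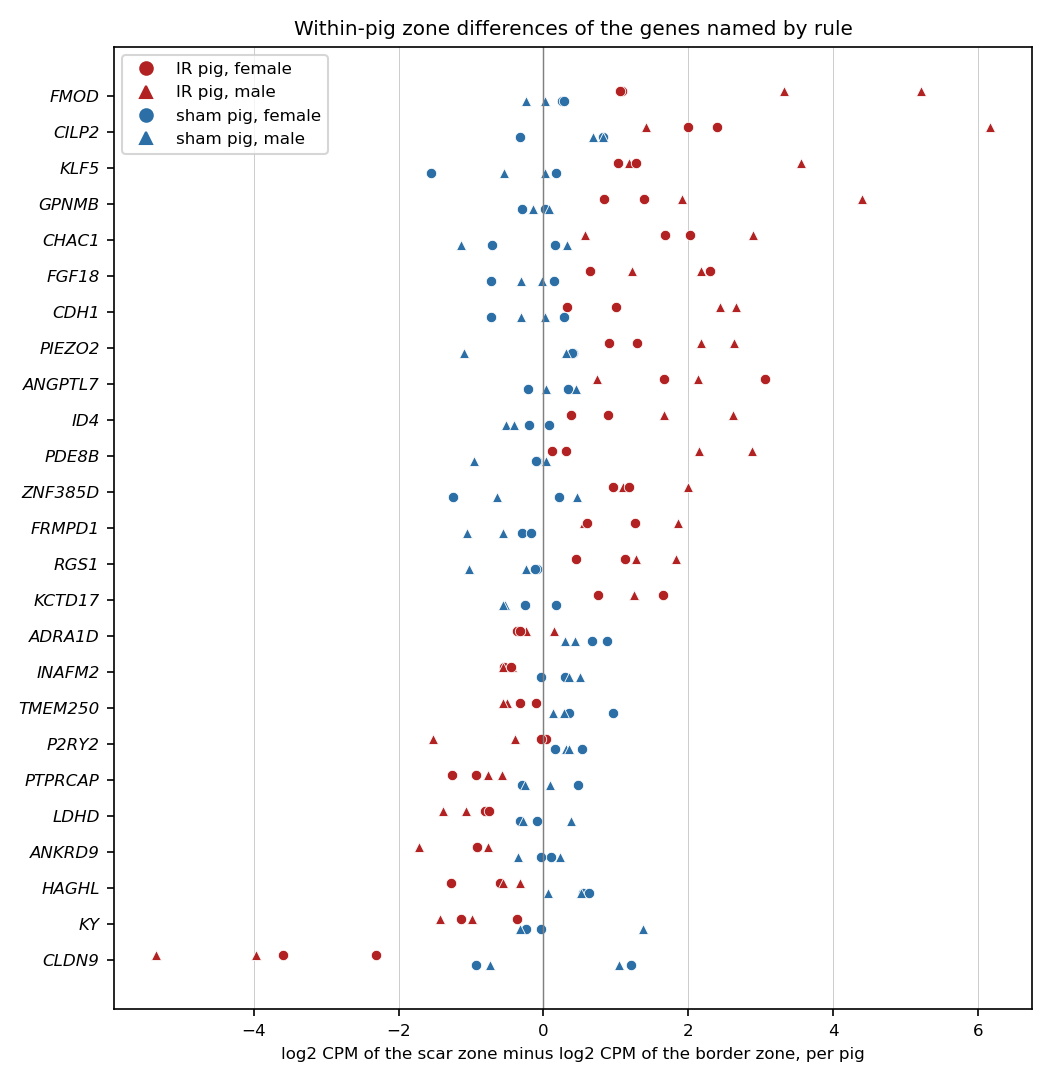
Zone difference (log2 CPM, scar minus border) of each pig for the 15 genes above and the 10 genes below with the largest differences in means, with IR pigs in red, sham pigs in blue, circles for females and triangles for males. In each row the 4 red and the 4 blue points do not overlap, and male pigs 9 and 11 are the highest for *FMOD* and *GPNMB*, whereas for *CILP2* pig 9 is the highest and pig 11 the lowest of the IR pigs.

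Among the 10 largest differences below, *LDHD*, the mitochondrial enzyme that oxidises D-lactate, was at 10.2, 14.3, 11.9 and 12.9 CPM in the border zones of IR pigs 2, 9, 11 and 14 and at 5.78, 5.41, 5.63 and 7.63 CPM in their scar zones. In sham pigs 4, 5, 12 and 13 it was at 16.4, 9.07, 9.38 and 13.2 CPM in the border zone and at 13.1, 8.50, 12.3 and 10.8 CPM in the scar zone. The IR scar zones were thus below all sham scar zones, and the border zones overlapped. The zone difference was -1.004 ± 0.29 (SD, n = 4) in IR pigs and -0.08 ± 0.33 (SD, n = 4) in sham pigs, and the edgeR estimate was -0.94 with a standard error of 0.21, with an adjusted p of 0.702.

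*KY*, a peptidase gene of muscle needed for its growth and junctions, gave -0.37, -1.43, -0.98 and -1.14 in IR pigs and -0.24, -0.04, 1.38 and -0.32 in sham pigs. Its difference in means of -1.17 was -0.78 without sham pig 12. *ANKRD9* gave -0.92, -0.77, -1.72 and -0.91 against -0.35 to 0.23. *HAGHL*, related to a glyoxalase, gave -1.28 to -0.32 in IR pigs and 0.06 to 0.63 in sham pigs, and *TMEM250* gave -0.56 to -0.11 against 0.13 to 0.95. *INAFM2* gave -0.56 to -0.43 against -0.03 to 0.50.

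The receptor gene *P2RY2*, which responds to extracellular ATP and UTP, gave 0.04, -1.53, -0.39 and -0.03 in IR pigs and 0.16 to 0.53 in sham pigs, with a difference in means of -0.82 that was -0.49 without pig 9. *ADRA1D*, the alpha-1D adrenergic receptor, gave -0.37 to 0.14 against 0.30 to 0.87. *PTPRCAP*, whose product binds CD45 in lymphocytes, gave -1.26 to -0.57 against -0.29 to 0.48.

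Among the sarcomere and cardiomyocyte markers, 3 of 53 lay below (5.66%, beside 1.7% of all genes) and 1 above (1.89%, beside 2.3%, which is no more than the share of all genes). The difference in means was positive for 11 of 53, beside 7424 of all 14278 genes, with a list median of -0.16. By pig the list overlapped between the groups. Its median zone difference was -0.10, -0.10, -0.32 and -0.05 in IR pigs 2, 9, 11 and 14. In sham pigs 4, 5, 12 and 13 it was -0.15, 0.09, -0.0003 and 0.07. *MYOM3*, of the M-band that links myosin filaments, was at 389, 417, 339 and 340 CPM in IR border zones and at 362, 221, 269 and 284 CPM in IR scar zones. Its zone differences of -0.92 to -0.10 lay below those of sham pigs, at -0.02 to 0.17. *FHL2*, a scaffold at the Z-disc, gave -0.89 to -0.23 against -0.17 to 0.07, and *HSPB7*, a small heat shock protein of heart muscle, gave -0.40 to 0.00 against 0.01 to 0.30. *TPM3*, a tropomyosin that many cell types make, lay above, at 0.01 to 0.47 against -0.23 to -0.03.

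The most abundant sarcomere genes overlapped between groups. *MYH7*, beta myosin heavy chain, gave -0.32 to 0.00 in IR pigs and -0.09 to 0.22 in sham pigs (exact permutation p = 0.229). *MYL2* and *TNNT2* gave exact permutation p-values of 0.457 and 0.257. The summed level of the 55 sarcomere and cardiomyocyte markers in the files was 88309 to 106811 TPM in IR scar zones and 87470 to 104448 TPM in sham scar zones, so that the ranges nearly coincided.

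Further single genes below were chosen after their values were seen, and no count stands behind them as a group. *SMTNL2*, a smoothelin-like gene of muscle, had the smallest unadjusted p of the named genes. Its zone differences were -0.37, -0.41, -0.26 and -0.37 in IR pigs and 0.20, 0.40, 0.23 and 0.19 in sham pigs, and the edgeR estimate was -0.61 with a standard error of 0.10, with an adjusted p of 0.702. *KLHL30* gave -0.51 to -0.35 against -0.05 to 0.22, and *RRAD*, a small GTPase that holds back L-type calcium channels, gave -0.94 to -0.24 against 0.08 to 0.52. *ANKRD23*, of the titin-bound stretch response, gave -1.04, -0.72, -0.23 and -0.45 in IR pigs against -0.16 to 0.13 in sham pigs, so that here female pig 2 was the lowest.

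The splicing factor of titin, *RBM20*, gave -0.43 to -0.13 against 0.08 to 0.22. The muscle ring finger gene *TRIM55* gave -0.63 to -0.06 against -0.03 to 0.11, and the kinase gene *MAPK12* gave -0.66 to -0.27 against -0.25 to 0.42. *FHOD3*, which builds sarcomeric actin, and the dystrophin complex genes *SGCB* and *SSPN* had small differences in means of -0.25, -0.15 and -0.16, and that of *SSPN* was -0.10 without sham pig 12.

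Calcium handling and ion channel genes gave 2 below (3.12%, beside 1.7% of all genes) and 1 above (1.56%, beside 2.3%) of 64, with a list median of -0.19 that was -0.28 without pig 14. By pig the list median was -0.23 and -0.27 in IR pigs 9 and 11 and 0.07 and 0.05 in IR pigs 2 and 14. In sham pigs it was 0.02 to 0.09. *SRL*, sarcalumenin of the sarcoplasmic reticulum, gave -0.40 to -0.06 in IR pigs and 0.03 to 0.27 in sham pigs. *KCNJ3*, a subunit of the potassium channel opened by vagal signals, gave -0.48 to -0.06 against -0.05 to 0.03. The gene above was *KCNE4*, an inhibitory potassium channel subunit, at 1.12, 0.48, 2.09 and 0.67 in IR pigs and -0.59 to 0.14 in sham pigs.

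The oxidative phosphorylation subunits were positive in 1 of 67 and had a median of -0.24, which was -0.16 without pig 11 and -0.38 without pig 14, and none was free of overlap, beside 4% of all genes. Their list median was -0.62 in pig 9 and -0.58 in pig 11, -0.13 in pig 2 and 0.05 in pig 14. Sham pig 4 was at -0.39, and the other three sham pigs were at -0.02 to 0.10. Fatty acid and ketone oxidation genes were positive in 6 of 46, with a median of -0.22 that was -0.33 without pig 14 and -0.15 without pig 9. By pig the list median was -0.55 and -0.42 in pigs 9 and 11 and 0.02 and 0.04 in pigs 2 and 14. In sham pigs it was -0.14 to 0.07. The only gene of this list without overlap (2.17%, beside 2.3% of all genes) was *ANGPTL4*, an inhibitor of lipoprotein lipase, which lay above at 0.09 to 0.79 against -0.76 to 0.02. Of 45 glycolysis, glycogen and lactate genes, with a median of -0.12 that was -0.07 without pig 11, 1 lay in each direction (2.22%), near the shares of all genes of 1.7% below and 2.3% above. *LDHD* lay below and *HK3*, a hexokinase of myeloid cells, lay above at 0.15 to 0.51 against -0.43 to 0.01. The mitochondrial share of counts was 4.99 and 4.05 percentage points lower in scar than in border tissue of pigs 9 and 11, and 2.85 and 2.16 points higher in pigs 2 and 14. In sham pigs it was 2.14 and 2.45 points lower in the scar zone of females 4 and 5, and 0.72 and 1.24 points higher in males 12 and 13. Its part in these results was not tested.

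Single genes below, chosen after their values were seen and not counted as a group, included *PPIF*, cyclophilin D of the permeability transition pore, at -1.19 to -0.27 in IR pigs against -0.26 to 0.26 in sham pigs. *OGDH*, of the tricarboxylic acid cycle, gave -0.50 to 0.05 against 0.06 to 0.22, and *MFN2*, which fuses mitochondria, gave -0.54 to 0.04 against 0.10 to 0.21. *CRAT*, carnitine acetyltransferase, gave -0.39 to 0.03 against 0.04 to 0.16. *PPP1R3C*, which promotes glycogen storage, gave -0.94 to -0.09 against -0.07 to 0.25, and the secreted peroxidase gene *GPX3* gave -1.02 to 0.01 against 0.06 to 0.54. In all of these pig 9 was the lowest IR animal.

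The natriuretic peptide genes, which mark wall stress, did not separate the groups within pigs. *NPPA* was at 314, 313, 146 and 19.5 CPM in the scar zones of IR pigs 2, 9, 11 and 14, and at 178, 53.1, 53.4 and 17.7 CPM in their border zones. In sham pigs 4, 5, 12 and 13 it was at 35.5, 12.6, 0.579 and 48.8 CPM in the scar and at 13.8, 33.9, 110 and 24.1 CPM in the border zone. The zone difference was positive in all 4 IR pigs, at 0.14 to 2.56, but sham pigs ranged from -7.39 to 1.36 (exact permutation p = 0.229). The -7.39 was that of sham pig 12, where *NPPA* went from 398 TPM in the border to 1.92 TPM in the scar zone. The atrial gene *MYL4* went from 49.0 to 1.64 TPM in the same samples. In IR pig 9 *NPPA* went from 205 to 1606 TPM and *MYL4* from 17.2 to 58.3 TPM. In IR pigs 2 and 14 *NPPA* rose while *MYL4* fell, from 66.5 to 63.2 and from 5.37 to 2.10 TPM. The part of atrial tissue in these values was not tested. *NPPB* gave -0.26 to 3.02 in IR pigs and -5.38 to 2.84 in sham pigs (exact permutation p = 0.457). Of 38 natriuretic and stress genes, *ADRA1D* and *IER3*, an early response gene, lay below (5.26%, beside 1.7% of all genes), and *IER3* gave -0.67 to -0.37 against -0.17 to 0.50.

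Of 47 endothelial and angiogenesis genes, 2 lay above (4.26%, beside 2.3% of all genes), with a list median of 0.05 that was 0.01 without pig 11 and 0.11 without pig 9. *PLVAP*, of the diaphragms of small vessels, was even among the IR pigs, at 0.43, 0.41, 0.45 and 0.38 in IR pigs and -0.49 to 0.21 in sham pigs. *TEK*, the angiopoietin receptor, gave 0.04 to 0.18 against -0.11 to 0.04. *PECAM1* overlapped, at -0.21 to 0.10 against -0.24 to 0.05 (exact permutation p = 0.429). None of 81 cell cycle and mitosis genes was free of overlap, beside 4% of all genes. Their list median of -0.05 was -0.20 without IR pig 11 and 0.10 without IR pig 2, so that its sign was not stable. The cyclin gene *CCNB1* gave -1.09 to -0.03 in IR pigs and -0.81 to 0.21 in sham pigs (exact permutation p = 0.4). The cell cycle list was lowest in IR pig 2, at a median of -0.80, and in sham pig 13, at -0.53.

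Markers of other cell types that a piece of heart wall may hold were also examined. Among 18 smooth muscle and pericyte markers *SYNPO2* lay below (5.56%, beside 1.7% of all genes), at -0.06 to 0.09 against 0.12 to 0.26. The 17 adipocyte, 16 neural and glial, 9 skeletal muscle and 7 erythrocyte markers tested gave none in either direction, beside 4% of all genes. The adipocyte gene *ADIPOQ* was at 0.0203 to 0.588 TPM over all samples. Of 15 epicardial and mesothelial markers *CLDN9* lay below (6.67%, beside 1.7% of all genes), but not when summed with its relative *CLDN6*, as given further on. The difference in means was positive for 12 of the 15 markers. Their list median of 0.39 was 0.08 without pig 9, 0.23 without pig 11 and 0.25 without sham pig 12, and 0.62 without pig 2 or pig 14. It was 1.56 and 0.84 in pigs 9 and 11 against -0.38 and -0.29 in pigs 2 and 14. The summed level of the 21 in the files was 25.7 to 114 TPM in IR scar zones and 29.3 to 40.8 TPM in sham scar zones. Summed cartilage and bone markers were at 35.5 to 682 TPM in IR scar zones and 37.0 to 48.4 TPM in sham scar zones. The part of such cells in the results was not tested.

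**Figure D4:**
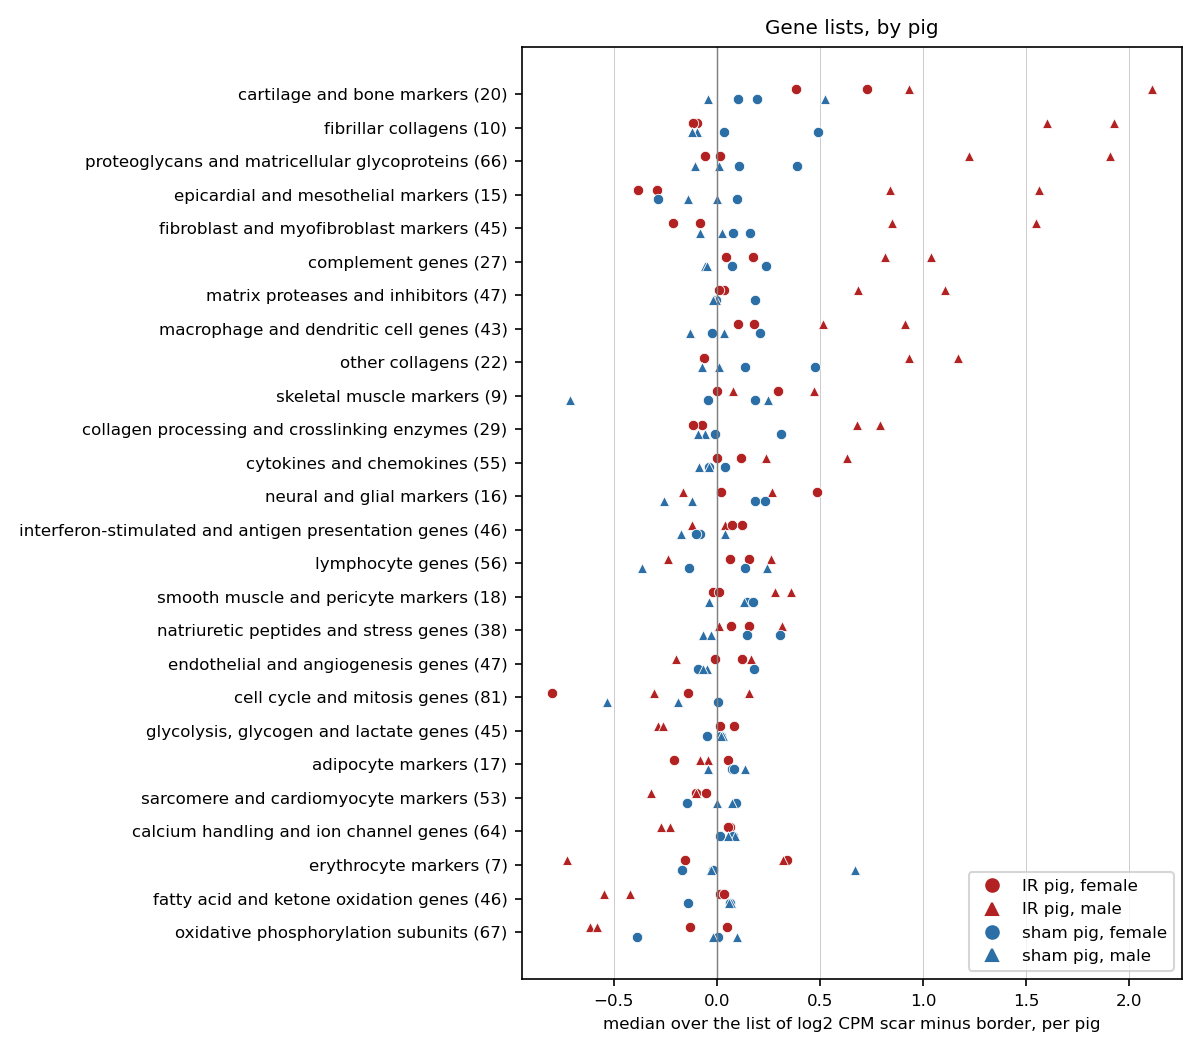
Median zone difference (log2 CPM, scar minus border) over each gene list in each pig, with the number of genes tested in brackets, IR pigs in red, sham pigs in blue, circles for females and triangles for males. In the collagen, proteoglycan, fibroblast and complement lists male IR pigs 9 and 11 stand apart on the right while female IR pigs 2 and 14 lie near the sham pigs, and the order is turned in oxidative phosphorylation and fatty acid oxidation.

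The animals contributed unequally to the genes without overlap as well. The mean of the 2 male IR pigs was farther from sham than that of the 2 female IR pigs in 218 of the 328 genes above and in 169 of the 243 genes below. Over the genes above, the median zone difference was nevertheless 0.30 in pig 2, 0.39 in pig 9, 0.43 in pig 11 and 0.28 in pig 14. Over the genes below it was -0.20, -0.32, -0.24 and -0.13 in the same order. These values follow from how the genes were picked, and they describe how evenly the 4 animals shared the difference. Pig 9 was the farthest from sham in 112 of the genes below, and pig 11 in 119 of the genes above.

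The largest difference below with a symbol is uncertain because reads may be shared between related genes. *CLDN9*, for a tight junction claudin, had 18, 110, 50 and 63 counts in the border zones of IR pigs 2, 9, 11 and 14 and 0, 0, 0 and 10 counts in their scar zones. In sham pigs 4, 5, 12 and 13 it had 30, 77, 26 and 105 counts in the border zone and 77, 47, 74 and 70 counts in the scar zone. *CLDN6*, a closely related claudin gene, had 45, 93, 118 and 37 counts in the IR scar zones where *CLDN9* was at or near 0. The 2 genes summed to 45 to 118 counts in IR scar zones and 60 to 96 counts in sham scar zones. The summed zone difference was -0.86 to 0.79 in IR pigs and -0.59 to 0.10 in sham pigs, which overlap, with a difference in means of -0.04. For *CLDN9* alone the difference in means was -3.95, and where 3 samples are at 0 its size depends on the count added before the logarithm. The sum was computed after the values were seen.

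**Figure D5:**
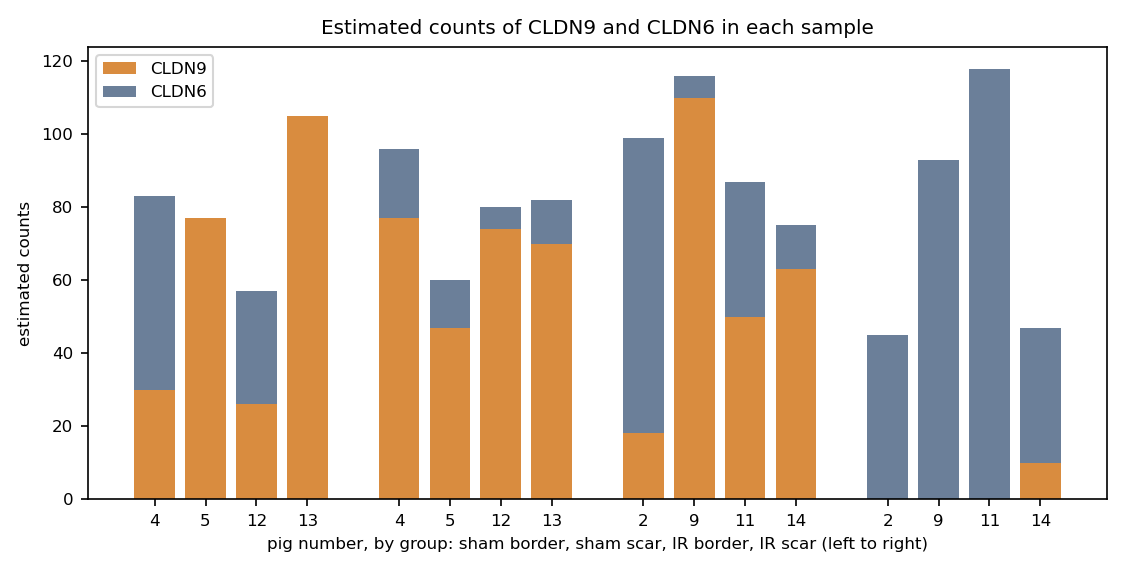
Estimated counts of *CLDN9* (orange) and *CLDN6* (grey-blue) stacked for each of the 16 samples, with pigs grouped from left to right as sham border, sham scar, IR border and IR scar zone. The orange part is missing in IR scar zones of pigs 2, 9 and 11 and reaches 10 counts in pig 14, while the full height of the bars overlaps between the groups.

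Of the genes without a symbol and at a mean of at least 1 CPM, the 2 in each direction with the largest difference in means are given by identifier only. ENSSSCG00000027665 was above, with zone differences of 0.03 to 2.47 in IR pigs and -0.57 to -0.06 in sham pigs. Its counts ran from 26 to 50 in the 4 samples of female sham pigs 4 and 5 and reached 114944 in the scar zone of IR pig 14. ENSSSCG00000037913 was also above, at 0.66 to 3.27 against -1.44 to 0.06, with 0 counts in some samples. ENSSSCG00000037349 was below, at -6.00 to 0.31 in IR pigs and 0.85 to 6.41 in sham pigs, and it too was at 0 counts in some samples. ENSSSCG00000040446 was below at -2.95 to -0.06 against 0.02 to 1.71, and its difference in means of -1.68 was -1.01 without pig 2. In all, 42 of the 328 genes above and 23 of the 243 genes below had no symbol.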

How the data were processed

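RNA from scar and border zone samples of 8 pigs was sequenced as stranded mRNA libraries. The submitters' processing notes name Trimmomatic 0.33, HISAT2 2.0.5 and kallisto 0.43.1; the genome build of the annotation is not given in the sources used here. The authors deposited estimated counts per gene from kallisto and, in a second table, TPM values per gene. Kallisto splits reads that fit several transcripts, so counts of closely related genes are uncertain. Of the genes, 15095 were listed by symbol and 7534 by Ensembl ID, and 889 of these IDs were given a symbol from a gene name table. No per-sample column was left unused.

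Estimated counts were rounded, filtered with filterByExpr (minimum count 10, minimum total count 15) and scaled by TMM in edgeR 4.0.16 (R 4.3.3). Log2 CPM used a prior count of 2. Both samples of a pig come from the same animal, and their deviations from the group means correlated at 0.354 to 0.692 in the 8 pigs, so pig was a replicate block in the main quasi-likelihood fit (pig + zone + zone:surgery, Benjamini-Hochberg over all genes). P-values measure the spread between 4 pigs per group. DESeq2 1.42.0 and limma 3.58.1 were run as alternatives, and the scripts were tested on simulated data. Panel genes were given a two-sided exact permutation test over 70 divisions of the pigs. Counting limits of 3 counts cover counting error only.

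The genes named were the 15 above and the 10 below with the largest difference in means (symbol, mean CPM of at least 1), up to 4 genes without overlap in each of 26 gene lists (or 2 abundant members), a panel of 21 genes of which 20 were tested, the genes nearest to the edge of the rule and 2 identifiers in each direction. The rest were chosen after their values were seen, as stated beside them. The rule, the members and the lists were chosen with earlier results of these data known. Alternatives tried were library totals, upper-quartile scaling, DESeq2 size factors, another prior count, no filter, a stricter filter, log2(TPM + 1), log2(TPM + 0.1), thinning and leaving out each pig. Centring of the TPM differences and the sum of 2 claudin genes were added after the data were seen.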

Additional observations from a re-analysis of the deposited data

Results flagged for a closer look

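Of 256 groups of 4 pigs examined, 20 held a pig far from the other three by Dixon's criterion, and chance alone gives such a pig in about 5% of groups. Most were zone differences (log2 CPM, scar minus border) of a sham pig. Sham pig 12 stood apart for *RGS1* at -1.02, *KY* at 1.38, *NCAM1* at -0.36 and *SSPN* at 0.16. Sham pig 4 stood apart for *CD209* at 2.69, *COX4I1* at -0.33 and *LOX* at 0.55, and sham pig 5 for *HSPB7* at 0.30 and *CILP2* at -0.33. Sham pig 13 stood apart for *FHL2* at -0.17, *PDE8B* at -0.96, *PIEZO2* at -1.09 and *HEXA* at -0.064. Among IR pigs, pig 9 stood apart for *KLF5* at 3.56, *MX1* at 0.80, *GARS* at 0.71 and *RBM20* at -0.43, and pig 11 for *ANKRD9* at -1.72. Pig 2 stood apart for ENSSSCG00000037349 at -6.00 and pig 14 for ENSSSCG00000037913 at 3.27.

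In 14 of the named genes every IR pig had a zone difference of one sign and every sham pig the other, and the difference between the groups missed the adjusted threshold in edgeR for each of them. Positive in IR pigs were *RGS1* with a difference in means of 1.54, *FRMPD1* with 1.59, ENSSSCG00000027665 with 1.62, *CGAS* with 0.56, *GARS* with 0.41, *IL10RB* with 0.36 and *TPM3* with 0.34. Negative in IR pigs were *HAGHL* with -1.13, *TMEM250* with -0.81, *RRAD* with -0.74, *SMTNL2* with -0.61, *SRL* with -0.36, *RBM20* with -0.35 and ENSSSCG00000040446 with -1.68.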

How the results depend on the processing

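The number of genes above without overlap was 285 to 351 and that below 193 to 314 under other scalings of counts, another prior count, no filter on low counts and thinning. A mean CPM of at least 5 left 197 above. On log2(TPM + 1) there were 215 above and 62 below, and on log2(TPM + 0.1) 216 and 61, and centring each pig, an alternative chosen after seeing the data, gave 283 and 216. Of the 328 genes above, 69 were kept in every one of the 10 settings that tested them, and of the 243 below, 20. A setting that did not test a gene was passed over. Only 254 of the genes above and 233 of those below were tested on log2(TPM + 1). Leaving out each pig in turn gave 421 to 714 above and 353 to 743 below, where fewer pigs separate more readily by construction. No gene passed the adjusted threshold in any of the edgeR, DESeq2 and limma fits tried, with the smallest adjusted p from 0.108 (limma on TPM) to 1.00 (no replicate block). At an unadjusted p of 0.05 and a fold of 2, leaving out a pig gave 110 to 401 larger and 20 to 51 smaller genes, beside 199 and 18. Without the replicate block 7 genes were smaller, without the filter 34, and limma on log2(TPM + 1) gave 49 larger and 8 smaller. For 18 of the 88 named genes without overlap 1 pig moved the difference in means by over 1.5 times, and for 11 of these it was pig 9. Among them *MX1* went from 0.45 to 0.27, *GARS* from 0.41 to 0.23 and *NOD1* from 0.81 to 0.52 without it. Of 870 values of named genes under other settings, 844 moved by less than the spread between pigs, 26 moved by more and 0 were reversed. Levels under 0.061 to 0.194 CPM, by sample, are under 3 counts, and the size of a difference that rests on them is not reliable.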
